A study of Mus musculus with 12 samples.

Results

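The 10 genes described here carry out antigen presentation by the major histocompatibility complex (MHC), and they were chosen by name. Of these, 6 belong to the class I pathway: the heavy chain genes H2-K1 and H2-D1, the light chain gene B2m, the peptide transporter gene Tap1 and the immunoproteasome genes Psmb8 and Psmb9. The other 4 belong to the class II pathway: the chain genes H2-Aa, H2-Ab1 and H2-Eb1, and the invariant chain gene Cd74. They are 10 of the 56065 genes listed, and all 10 were among the 13631 genes tested. Liver RNA was sequenced as 12 poly(A)-selected libraries in 3 groups of 4, in a study of cinnabarinic acid in mice on a steatohepatitis diet. MD+CA mice ate a diet in which fat supplied 40 kcal% and fructose 20 kcal%, with 2% cholesterol added, for 20 weeks and were given cinnabarinic acid, a tryptophan metabolite that binds the aryl hydrocarbon receptor (AhR), at 12 mg/kg into the peritoneum 3 times a week. MD mice ate the same diet and were given vehicle (0.2% DMSO in saline) on the same schedule. CD mice were fed for the same 20 weeks a diet of 10 kcal% fat whose sucrose was matched, and the labels do not say whether they were injected, so diet and injection cannot be told apart in MD against CD. All mice carried floxed AhR alleles, were labelled male and were 8 weeks old at the start. The labels name no Cre, no strain background and no time of collection. The labels also do not say that each library came from its own mouse, so p-values measure only the spread between libraries.

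MHC class I molecules are made by nearly all nucleated cells and show peptides from the cell's own proteins to CD8 T cells. The peptides are cut by the proteasome, pumped into the endoplasmic reticulum and bound there by a heavy chain paired with the light chain. Class II molecules are made mainly by macrophages, dendritic cells and B cells, in liver chiefly by Kupffer cells and other immune cells, and show peptides from taken-up material to CD4 T cells after the invariant chain has been cut away. Interferon gamma raises the transcription of both sets of genes, in large part through the coactivators NLRC5 (class I) and CIITA (class II).

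The libraries held 9089586 to 14492587 reads assigned to transcripts. The members had between 97 reads (H2-Aa in MD+CA replicate 3) and 33447 reads (B2m in MD replicate 1) in a library. Several libraries stood apart. MD+CA replicate 2 held transcripts of skeletal muscle: a list of 10 muscle genes, put together after the data had been seen, summed to 826 CPM (counts scaled to library size) there, against 1.93, 29.1 and 2.59 CPM in MD+CA replicates 1, 3 and 4, 0.376 to 2.95 CPM in MD and 0.447 to 1.25 CPM in CD. Myh1, a myosin of fast muscle fibres, had 227 CPM in MD+CA replicate 2 and 6.08 CPM in MD+CA replicate 3, against at most 0.346 CPM in the other 10 libraries. In MD, mitochondrial transcripts took 10.7, 17.5, 6.16 and 9.37% of the reads of replicates 1 to 4, against 4.98 to 7.94% in MD+CA and 5.72 to 6.63% in CD. All 12 libraries held 5122 to 12865 reads of Xist and 0 reads of 4 Y-linked genes, which goes against the label of male; results are therefore given by diet and treatment only.

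The stretches just before the transcription starts of 6 members are shown because class I and class II genes are known for their promoter elements. The sequences were taken from RefSeq, assembly GRCm38.p6, and 8 of the 10 members had an entry; H2-Ab1 and Cd74 had none. Each is written 5′ to 3′ on the gene's own strand and ends just before the start, and capitals mark 4 motifs, each searched on both strands. Enhancer A, the NF-kappaB element of class I genes, was searched as the run of 11 letters that is the first block of capitals in H2-K1. The interferon element was searched as GAANNGAAA, the core of the X box as GCAAC and that of the Y box as GATTGG.
H2-K1, chr17:34000348-34000497, minus strand: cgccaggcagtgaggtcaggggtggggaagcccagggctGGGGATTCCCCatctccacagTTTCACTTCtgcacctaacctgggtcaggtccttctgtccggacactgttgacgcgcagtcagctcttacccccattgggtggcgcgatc
H2-D1, chr17:35262894-35263093, plus strand: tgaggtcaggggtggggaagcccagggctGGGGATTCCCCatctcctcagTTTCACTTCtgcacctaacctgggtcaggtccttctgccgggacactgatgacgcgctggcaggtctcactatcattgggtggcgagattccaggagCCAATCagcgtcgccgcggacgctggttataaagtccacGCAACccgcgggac
B2m, chr2:122147537-122147686, plus strand: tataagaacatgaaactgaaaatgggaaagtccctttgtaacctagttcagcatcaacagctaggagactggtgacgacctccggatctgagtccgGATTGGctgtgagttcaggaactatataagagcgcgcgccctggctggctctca
Tap1, chr17:34187331-34187555, plus strand: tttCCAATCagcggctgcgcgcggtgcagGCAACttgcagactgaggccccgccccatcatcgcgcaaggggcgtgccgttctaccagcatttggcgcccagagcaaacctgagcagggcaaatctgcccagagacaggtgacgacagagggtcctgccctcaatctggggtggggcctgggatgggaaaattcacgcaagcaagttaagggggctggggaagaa
H2-Aa, chr17:34287824-34287973, minus strand: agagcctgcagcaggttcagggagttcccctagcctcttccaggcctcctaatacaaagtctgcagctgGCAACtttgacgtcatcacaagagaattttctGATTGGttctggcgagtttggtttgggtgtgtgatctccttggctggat
H2-Eb1, chr17:34305717-34305866, plus strand: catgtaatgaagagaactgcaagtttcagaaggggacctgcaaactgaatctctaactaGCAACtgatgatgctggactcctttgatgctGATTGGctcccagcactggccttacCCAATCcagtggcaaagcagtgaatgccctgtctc

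Within 250 bases before the start, H2-K1 and H2-D1 each held the enhancer A letters, and the interferon element lay 10 bases further towards the start in both. The first motif was found in 0.03% of 32851 mouse promoter windows of that length and the second in 6.31%. The enhancer A letters searched are those of H2-K1 itself, so its match was fixed by that choice. The H2-D1 stretch shown has nearly the same letters around that block, so its match is not a separate observation. H2-Aa and H2-Eb1 each held the X box core followed by the Y box core, in that order towards the start. H2-D1 held both cores as well, an X box core 212 bases before the start, outside the stretch shown, then a Y box core and a second X box core. Those short cores are common, at 29.88% and 14.56% of windows, and of the motifs as searched B2m held the Y box core alone. Only the letters stated were searched, so variants of an element would be missed. The B2m stretch shown holds gaaactgaaa and gggaaagtccc, which resemble the interferon element and enhancer A but differ from the letters searched. The lack of a match in B2m therefore does not show that it lacks these elements. The starts of Tap1 and Psmb9 lie 226 bases apart on opposite strands, and the Tap1 sequence shown is the stretch between them; its X and Y box cores lie at the Psmb9 end. A match is a description of these letters and not a measured binding site, and no promoter activity was measured here.

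The class I chain genes were the most abundant members and Tap1 the least. Compared per transcript length, in TPM over the 12 libraries, B2m averaged 4214 ± 1045 (SD), H2-K1 854 ± 247, H2-D1 371 ± 133 and Psmb8 94.5 ± 47.3 TPM. The class II genes followed, with Cd74 at 55.1 ± 40.9, H2-Ab1 at 47.9 ± 44.8, H2-Aa at 43.6 ± 27.8 and H2-Eb1 at 22.9 ± 20.1 TPM. Psmb9 stood among them at 32.2 ± 18.5 TPM, and Tap1 was lowest at 10.6 ± 5.87 TPM. The lowest library of B2m (2980 TPM) stood above the highest of H2-K1 (1233 TPM), while the libraries of H2-K1 and H2-D1 overlapped, from 499 TPM up in H2-K1 and up to 715 TPM in H2-D1. From Cd74 to H2-Eb1 each gene differed from the next by less than 1 SD.

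**Figure D1:**
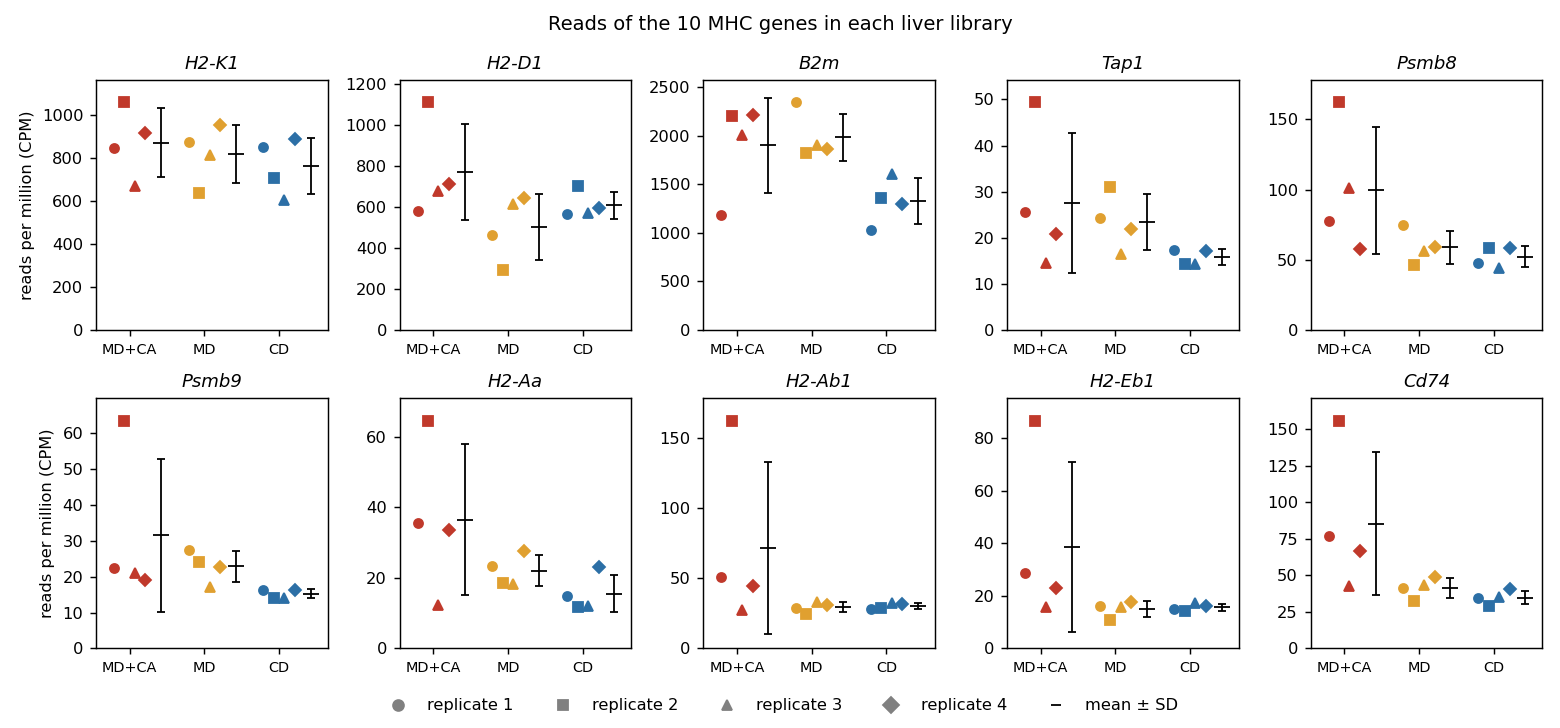
CPM (scaled with TMM factors) of each of the 10 MHC genes, on an axis that starts at 0, in the 4 MD+CA, 4 MD and 4 CD libraries; symbols mark the replicate number, and the bar beside each group is its mean ± SD. MD+CA replicate 2 is the highest of all 12 libraries for every gene but B2m, and MD+CA replicate 3 lies near the MD and CD libraries for the class II genes.

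The comparison of MD+CA with MD asks what cinnabarinic acid changed on the disease diet. All 4 class II genes averaged higher in MD+CA, by 0.74 to 1.36 on the log2 scale, but none of them passed the test, and 1 of the 4 MD+CA libraries carried much of the difference. In bulk liver, more cells of a type and more RNA per cell cannot be told apart. H2-Ab1, the beta chain of the class II molecule I-A, had 51.0, 162, 27.6 and 44.5 CPM in MD+CA, against 28.9, 24.7, 33.3 and 31.2 CPM in MD (and 27.9, 28.5, 32.3 and 31.6 CPM in CD). Replicate 2 of MD+CA stood highest, replicates 1 and 4 stood above every MD library, and replicate 3 lay within the MD range, so the groups overlapped. The difference was 1.27 (SE 0.40, adjusted p = 0.0828, edgeR quasi-likelihood test with Benjamini-Hochberg adjustment over all genes tested).

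H2-Eb1, the beta chain of the class II molecule I-E, had 28.8, 86.5, 15.8 and 23 CPM in MD+CA, against 16, 10.7, 15.9 and 17.5 CPM in MD (14.9, 14.4, 17.3 and 16.2 CPM in CD). Its libraries fell in the same order as those of H2-Ab1 within MD+CA, and its log2 difference was 1.36 (SE 0.40, edgeR adjusted p = 0.0713). Cd74, the chaperone that blocks the peptide groove of new class II molecules, had 77.1, 156, 42.7 and 66.8 CPM in MD+CA, against 41.2, 32.7, 43.5 and 48.9 CPM in MD (34.5, 29.4, 35.0 and 40.7 CPM in CD), a log2 difference of 1.04 (SE 0.31, edgeR adjusted p = 0.0722). Again replicate 3 alone of the MD+CA libraries lay inside the MD range. H2-Aa, the alpha chain of I-A, had 35.6, 64.5, 12.3 and 33.6 CPM in MD+CA, against 23.3, 18.6, 18.3 and 27.6 CPM in MD (14.9, 11.8, 12.2 and 23.2 CPM in CD). Here replicate 3 was below every MD library, and the log2 difference was 0.74 (SE 0.37, edgeR adjusted p = 0.241).

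Summed over the 4 genes, the class II level was 193, 469, 98.4 and 168 CPM in MD+CA, against 86.8 to 125 CPM in MD and 84.0 to 112 CPM in CD. Leaving out MD+CA replicate 2, which also held the muscle transcripts, gave log2 differences from MD of 0.48 for H2-Ab1, 0.59 for H2-Eb1, 0.58 for Cd74 and 0.32 for H2-Aa, all still positive, with adjusted p from 0.205 to 0.647. Only Cd74 passed without MD+CA replicate 3 (1.26, adjusted p = 0.0433). The part of the muscle tissue in the class II levels was not tested.

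**Figure D2:**
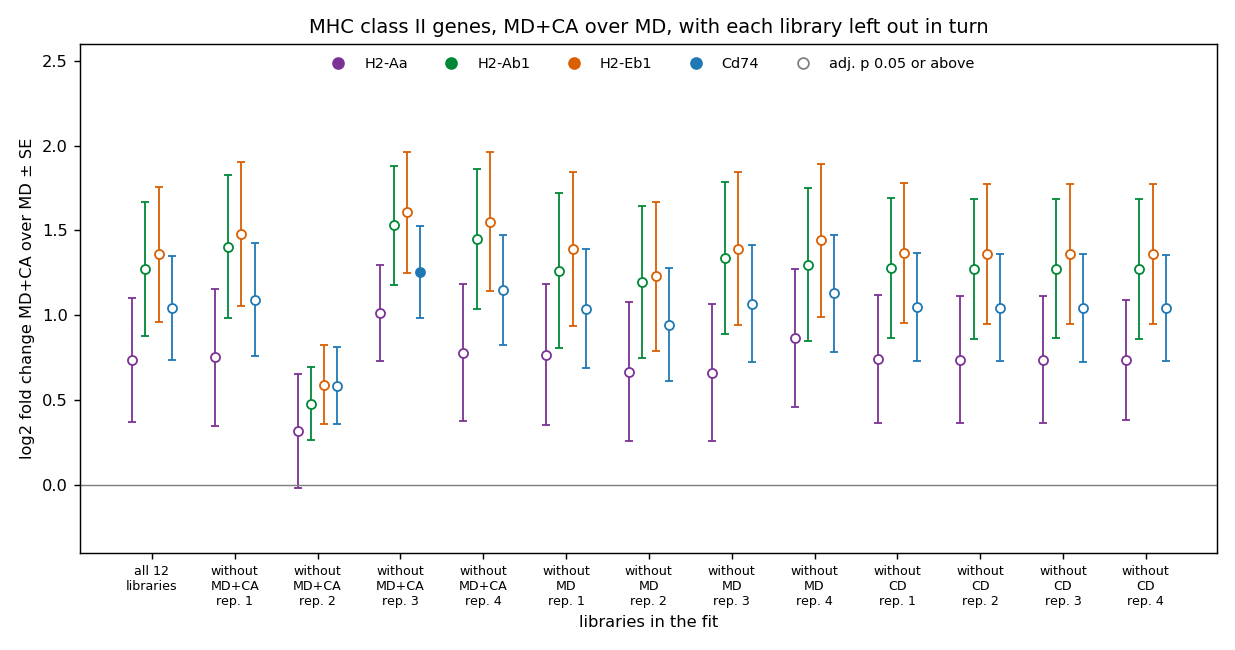
Log2 fold change of the 4 class II genes, MD+CA over MD, with its SE, in the fit of all 12 libraries and in fits with each library left out; filled points passed an adjusted p of 0.05. Leaving out MD+CA replicate 2 lowers all 4 values, to between 0.32 and 0.59, and only Cd74 without MD+CA replicate 3 is filled.

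Of the class I chain genes, H2-D1 averaged higher in MD+CA than in MD and the others were close to level. H2-D1 had 580, 1112, 680 and 712 CPM in MD+CA, against 465, 294, 615 and 646 CPM in MD, a log2 difference of 0.61 (SE 0.27, edgeR adjusted p = 0.194). MD+CA replicate 1 lay below MD replicates 3 and 4, so the groups overlapped. H2-K1 had 845, 1059, 670 and 916 CPM in MD+CA, against 873, 636, 814 and 952 CPM in MD, a difference of 0.09 (SE 0.23, adjusted p = 0.838). B2m had 1186, 2205, 2007 and 2213 CPM in MD+CA, against 2344, 1828, 1903 and 1868 CPM in MD, a difference of -0.06 (SE 0.25, adjusted p = 0.903). For H2-K1 and B2m the difference was smaller than its standard error. H2-K1, H2-D1 and the H2-Q genes share long near-identical stretches, and the quantification divides their reads between them, so the levels of single genes of that family are uncertain.

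RNA of the peptide supply genes Psmb8, Psmb9 and Tap1 was higher on average in MD+CA as well, mostly in replicate 2. Psmb8, the chymotrypsin-like subunit that replaces Psmb5 in the immunoproteasome, had 77.3, 162, 100.9 and 57.4 CPM in MD+CA, against 74.5, 46.1, 56.5 and 58.9 CPM in MD, a log2 difference of 0.75 (SE 0.28, edgeR adjusted p = 0.124). Replicate 4 of MD+CA lay inside the MD range and replicates 1, 2 and 3 above it, and without replicate 2 the difference was 0.41 (adjusted p = 0.368). Psmb9, which replaces Psmb6, had 22.3, 63.4, 21.1 and 19.1 CPM in MD+CA, against 27.5, 24.2, 17.2 and 22.7 CPM in MD (0.46, SE 0.32, adjusted p = 0.404). Tap1, a subunit of the peptide pump, had 25.6, 49.4, 14.4 and 20.8 CPM in MD+CA, against 24.2, 31.1, 16.5 and 21.9 CPM in MD (0.24, SE 0.31, adjusted p = 0.664). For both genes only replicate 2 of MD+CA stood above the MD libraries, and without it the differences were -0.13 for Psmb9 and -0.20 for Tap1. The constitutive subunits Psmb5, Psmb6 and Psmb7 were not higher: their log2 differences were -0.34, -0.52 and -0.05, and 0 of 3 passed.

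Over all 10 members, 0 passed edgeR's test in MD+CA against MD, where 2.71% of all genes did (1.06% higher and 1.64% lower). For 0 members did the libraries of the groups not overlap, against 4.99% of all genes with every MD+CA library higher and 5.21% with every one lower. At an unadjusted p under 0.05, 5 of 10 were higher and 0 lower, where 23.2% of all genes passed in either direction. The median log2 difference of the 10 was 0.67, and that of all genes tested was 0.00 to 2 decimals (-0.004). By DESeq2 3 members passed (H2-Ab1, H2-Eb1 and Cd74, adjusted p 0.0222, 0.0141 and 0.0176), where DESeq2 called 8.83% of all genes, and by limma voom 0 did, where it called 2.99%.

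**Figure D3:**
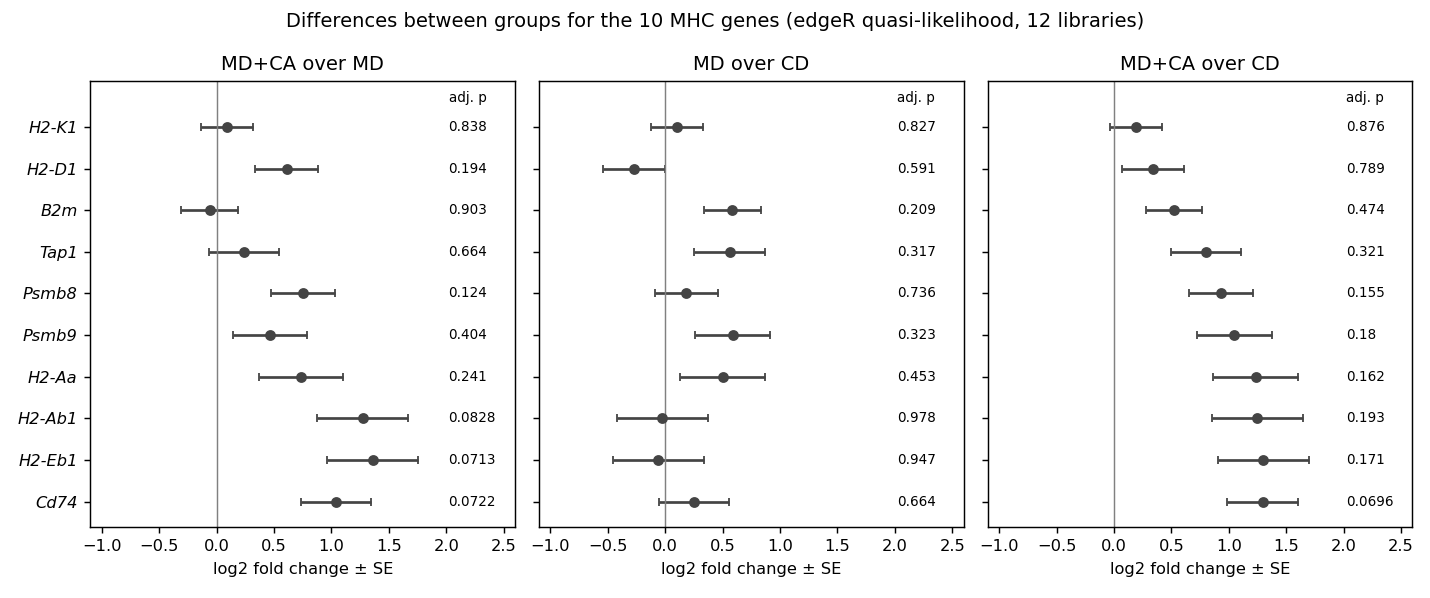
Log2 fold change ± SE of the 10 MHC genes in MD+CA over MD, MD over CD and MD+CA over CD, with the adjusted p of each at the right. In both comparisons that involve MD+CA every gene lies to the right of 0, except B2m in MD+CA over MD (-0.06). No adjusted p is under 0.05.

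Genes that act on class II molecules inside the cell did pass in MD+CA against MD. Of a list of 16 other class II pathway genes, 13 were tested and 2 rose, Ctss and Ifi30, with 0 lower, where 1.06% of all genes rose and 1.64% fell. Ctss encodes cathepsin S, the protease that cuts the last piece of the invariant chain, and had 64.7, 140, 76.1 and 93.5 CPM in MD+CA, against 29.4, 23.8, 50.2 and 45.5 CPM in MD. All 4 MD+CA libraries stood above all 4 MD libraries, as for 5 of the 13 genes and 4.99% of all genes, and the log2 difference was 1.33 (SE 0.28, edgeR adjusted p = 0.025). Ifi30, a lysosomal reductase that opens disulfide bonds of antigens, had 27.6, 24.1, 22.4 and 16.3 CPM in MD+CA, against 13.5, 9.06, 13.4 and 13.6 CPM in MD. These groups did not overlap either, with a log2 difference of 0.86 (SE 0.20, edgeR adjusted p = 0.0344). Without MD+CA replicate 2 the values were 1.07 for Ctss (adjusted p = 0.073) and 0.83 for Ifi30 (adjusted p = 0.0855). The call of Ctss was also lost without MD replicate 1 or 2 (adjusted p = 0.0833 and 0.064), and that of Ifi30 without any 1 of MD replicates 1, 2 and 4, CD replicate 3 and MD+CA replicate 3 (adjusted p from 0.0514 to 0.076), while the log2 differences stayed between 0.74 and 0.91 in these 5 fits.

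Lgmn, a lysosomal endopeptidase, had 33.4, 25.9, 34.7 and 32.9 CPM in MD+CA, against 21.2, 16.7, 21.9 and 18.3 CPM in MD, with no overlap and a log2 difference of 0.70 short of the threshold (edgeR adjusted p = 0.0511). H2-DMb1, a chain of the H2-M molecule that trades the invariant chain remnant for peptide, had 5.79, 10.2, 3.80 and 3.11 CPM in MD+CA, against 1.54, 3.05, 2.55 and 2.47 CPM in MD (1.27, edgeR adjusted p = 0.0697). The 2 coactivators, singled out for their role after their values were seen, were near level between MD+CA and MD. Ciita had 1.19, 4.01, 1.27 and 1.38 CPM in MD+CA, against 1.75, 2.85, 0.977 and 1.83 CPM in MD, and Nlrc5 had 30.7, 67.4, 34.7 and 32.2 CPM in MD+CA, against 45.9, 60.9, 27.1 and 29.6 CPM in MD. Their log2 differences were 0.11 (SE 0.44) and 0.01 (SE 0.30), with edgeR adjusted p of 0.902 and 0.983. Ciita had few reads, 10 to 49 in MD+CA libraries and 13 to 28 in MD. Every MD+CA library of Ciita stood above every CD library, as for 3.48% of all genes, at 0.91 (SE 0.45, edgeR adjusted p = 0.529). In MD against CD Ciita differed by 0.80 with overlap (adjusted p = 0.33). Nlrc5 differed by 0.31 in MD+CA against CD (adjusted p = 0.836).

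**Figure D4:**
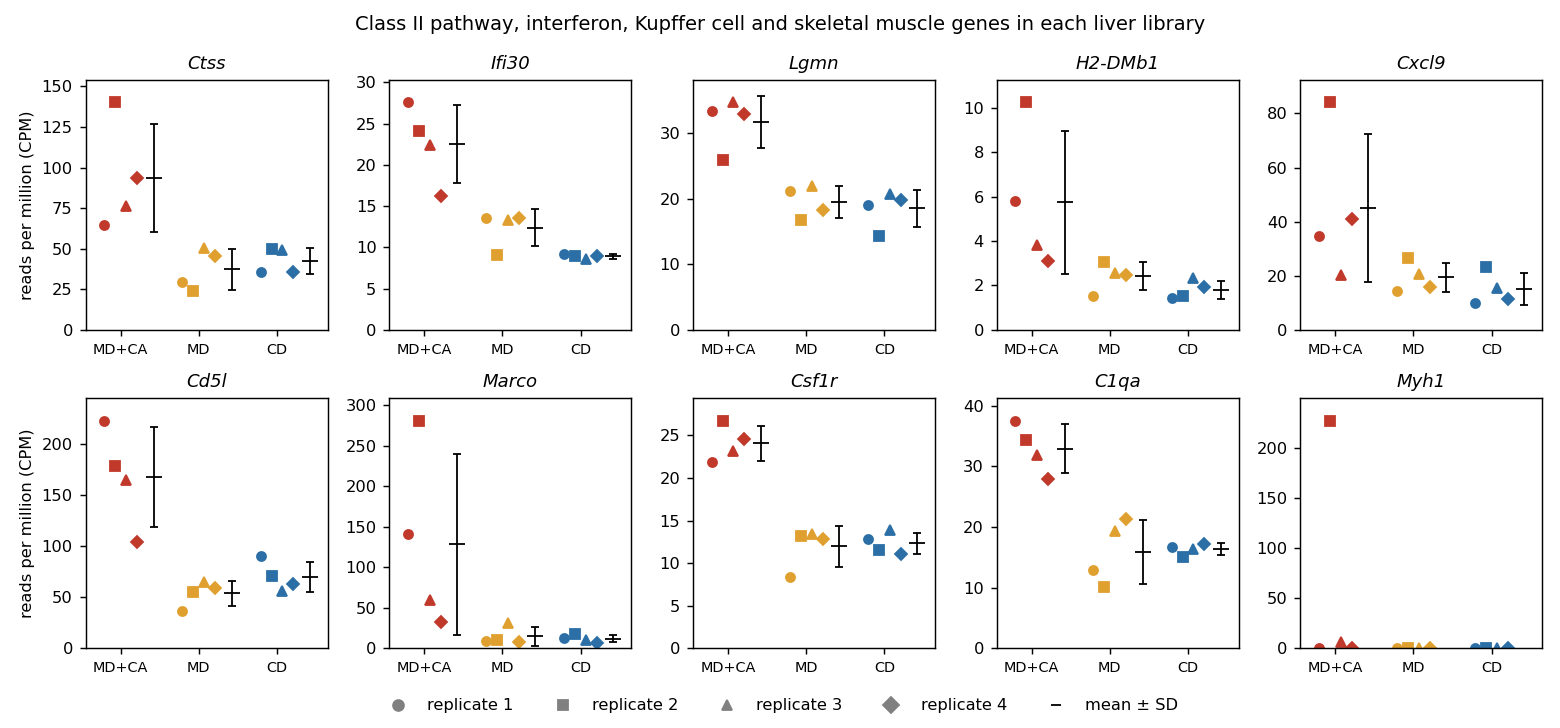
CPM of class II pathway genes (Ctss, Ifi30, Lgmn, H2-DMb1), the interferon axis gene Cxcl9, Kupffer cell markers (Cd5l, Marco, Csf1r, C1qa) and the muscle gene Myh1 in the MD+CA, MD and CD libraries, with the mean ± SD of each group except for Myh1. Ctss, Ifi30, Lgmn, H2-DMb1 and the Kupffer cell genes do not overlap between MD+CA and MD, and Myh1 is high in MD+CA replicate 2 alone, at 227 CPM.

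Of a list of 12 genes of the interferon gamma axis, 10 were tested and all 10 averaged higher in MD+CA than in MD. Of these, 1 gene, not reported here, passed edgeR's test, where 1.06% of all genes rose. Cxcl9 and Ifngr1 averaged higher without passing the test. Cxcl9, a chemokine made in response to interferon gamma, had 34.5, 84.1, 20.4 and 41.1 CPM in MD+CA, against 14.5, 26.5, 20.8 and 16 CPM in MD (1.22, adjusted p = 0.0799). Ifngr1, a receptor chain, differed by 0.72 (adjusted p = 0.0779). Ifng itself was at the limit of detection, with 0 to 6 reads in MD+CA libraries, 0 or 1 in MD and 0 to 2 in CD.

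None of 11 other class I pathway genes passed in MD+CA against MD, with 4 at an unadjusted p under 0.05, all higher (23.2% of all genes in either direction), and 1 called by DESeq2 and by limma voom (Calr). In this comparison DESeq2 called 8.83% and limma voom 2.99% of all genes. Calr, a chaperone that folds class I heavy chains among many other proteins, had 2717, 3049, 4399 and 2541 CPM in MD+CA, against 1358, 1988, 1526 and 1269 CPM in MD. The groups did not overlap, and the log2 difference was 1.05 (SE 0.28, edgeR adjusted p = 0.0534). Psme1, a proteasome activator subunit, differed by 1.0 (adjusted p = 0.144), and Tapbp, which bridges the pump and the heavy chain, by 0.45 (adjusted p = 0.164). Of 12 non-classical class I genes 11 were tested and 0 passed, with 2 at an unadjusted p under 0.05 (again 23.2% of all genes), both higher, and 1 called by DESeq2 and by limma voom (H2-T24, 0.97, edgeR adjusted p = 0.0686). H2-Q10, a class I protein that the mouse liver secretes, was picked after its values were seen and was near level, with 1673 ± 313 CPM in MD+CA, 1819 ± 266 CPM in MD and 1846 ± 298 CPM in CD (SD, n = 4 each).

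The diet comparison, MD against CD, asks what the disease diet with vehicle did. None of the 10 members passed edgeR's test, where 0.088% of all genes did (0.044% higher and 0.044% lower); 1 was at an unadjusted p under 0.05 (B2m), where 19.9% of all genes were, and DESeq2 and limma voom called 0 members, where they called 4.68% and 2.74% of all genes. B2m was higher in every MD library: 2344, 1828, 1903 and 1868 CPM in MD, against 1031, 1357, 1608 and 1301 CPM in CD, a log2 difference of 0.58 (SE 0.25, adjusted p = 0.209). Psmb9 also did not overlap, with 27.5, 24.2, 17.2 and 22.7 CPM in MD, against 16.3, 14.2, 14.1 and 16.4 CPM in CD (0.59, SE 0.33, adjusted p = 0.323). These 2 of 10 members stood entirely higher, as did 5.99% of all genes, and 0 stood entirely lower, against 7.12% of all genes. The heavy chain genes went in opposite directions, 0.10 for H2-K1 and -0.27 for H2-D1, both within about 1 SE of 0.

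Among the class II genes, H2-Ab1 and H2-Eb1 were near level between MD and CD, at log2 differences of -0.02 and -0.06. Cd74 averaged higher in MD by 0.25 and H2-Aa by 0.50 (0.37 to 0.76 with 1 library left out). None of the 4 passed, with adjusted p from 0.453 to 0.978, and the MD and CD libraries overlapped for all 4. Tap1 differed by 0.56 (adjusted p = 0.317) and Psmb8 by 0.18 (adjusted p = 0.736). The median of the 10 was 0.22, against 0.04 over all genes tested. Of the 48 genes tested in the 5 lists of other pathway genes, 0 passed by edgeR, DESeq2 or limma voom, which called 0.088%, 4.68% and 2.74% of all genes. By edgeR 5 of the 48 were at an unadjusted p under 0.05, a smaller share than the 19.9% of all genes. The smallest p was that of Rfxank, a subunit of the factor that binds the X box, at a log2 difference of 0.84 (adjusted p = 0.131).

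MD+CA against CD combines the diet with cinnabarinic acid, and it shares the MD+CA libraries with the first comparison and the CD libraries with the second. All 10 members averaged higher, with a median of 0.99 against 0.02 over all genes tested, and 0 passed edgeR's test, where 0.528% of all genes did (0.22% higher and 0.308% lower). At an unadjusted p under 0.05, 7 of 10 were higher and 0 lower, where 10.5% of all genes passed in either direction. Cd74 came nearest: 77.1, 156, 42.7 and 66.8 CPM in MD+CA, against 34.5, 29.4, 35.0 and 40.7 CPM in CD, with no overlap and a log2 difference of 1.3 (SE 0.31, adjusted p = 0.0696). Psmb9 also did not overlap (1.05, SE 0.33, adjusted p = 0.18), so that 2 of 10 stood entirely higher, as did 3.48% of all genes, and 0 stood entirely lower, against 2.92% of all genes. H2-Eb1, H2-Ab1, H2-Aa, Psmb8 and Tap1 differed by 1.3, 1.25, 1.24, 0.93 and 0.80, with adjusted p of 0.171, 0.193, 0.162, 0.155 and 0.321. By DESeq2 4 members passed (Cd74, H2-Aa, H2-Eb1 and Psmb8), where it called 2.45% of all genes, and by limma voom 1 (Cd74), where it called 1.4%. Without MD+CA replicate 2 the median of the 10 was 0.45 and that of the class II genes 0.67, with Cd74 at 0.83 (adjusted p = 0.161).

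Ifi30 rose in MD+CA against CD, with 27.6, 24.1, 22.4 and 16.3 CPM in MD+CA, against 9.25, 8.91, 8.58 and 8.90 CPM in CD. Its 4 CD libraries lay close together, and the log2 difference was 1.34 (SE 0.20, edgeR adjusted p = 0.00902), and 1.31 without MD+CA replicate 2 (adjusted p = 0.0344). H2-DMb1 (1.67, adjusted p = 0.0555), Lgmn (0.77, adjusted p = 0.065), Cxcl9 (1.58, adjusted p = 0.0696) and Irf8 (0.81, adjusted p = 0.0767) came next. All were higher in MD+CA and none of these passed.

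Markers of Kupffer cells, the resident liver macrophages, rose in MD+CA. Of 11 Kupffer cell markers, 5 rose in MD+CA against MD (Cd5l, Csf1r, Marco, C1qa and Vsig4) and 4 rose against CD (Marco, C1qb, Csf1r and Cd5l), with 0 lower, where 1.06% and 0.22% of all genes rose. Their summed level was 731, 767, 636 and 386 CPM in MD+CA, against 185 to 307 CPM in MD and 231 to 291 CPM in CD, so that every MD+CA library stood above the other 8. Without MD+CA replicate 2, 2 of 11 passed against MD (Cd5l and Csf1r) and 0 against CD, while the median differences were 1.0 and 1.1. Against MD, 5, 3 and 6 passed without MD+CA replicate 1, 3 and 4. Against CD the count was also 0 without MD+CA replicate 1, 1 without replicate 3 and 8 without replicate 4. The calls over all genes moved as well. Without MD+CA replicates 1, 2, 3 and 4 they were 764, 119, 129 and 260 against MD, and 31, 28, 37 and 169 against CD, of 13874 to 13937 genes tested. MD+CA replicates 1 and 2 were the highest of their group in both the Kupffer and the class II sum; replicates 3 and 4 had Kupffer sums of 636 and 386 CPM and class II sums of 98.4 and 168 CPM. The part of Kupffer cell numbers in the class II levels was not tested.

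Lists for other cell types gave few calls. Of 9 dendritic cell markers 6 were tested. In MD+CA against MD 0 rose and 1 fell, Zbtb46 (-0.91, edgeR adjusted p = 0.0499), where 1.06% of all genes rose and 1.64% fell. Of the dendritic markers 0 passed in that comparison without MD+CA replicate 2 or 3. Every MD library of Zbtb46 stood above every CD library (0.78, edgeR adjusted p = 0.121), as for 2 of the 6 markers and 5.99% of all genes. In MD+CA against CD it was near level (-0.13, edgeR adjusted p = 0.937). At an unadjusted p under 0.05, 4 of the 6 were higher in MD against CD and 2 in MD+CA against CD, where 19.9% and 10.5% of all genes passed, and edgeR called 0. Batf3, a transcription factor needed by cross-presenting dendritic cells, had 5.79, 6.22, 5.32 and 2.77 CPM in MD+CA, against 1.47, 2.55, 1.88 and 1.03 CPM in MD. Its groups did not overlap, and its log2 difference of 1.54 was just short of the threshold (edgeR adjusted p = 0.0523). DESeq2 and limma voom called it, where they called 8.83% and 2.99% of all genes. The list summed to 16.1 to 28.2 CPM in MD+CA, 20.8 to 42.9 CPM in MD and 14.6 to 18.3 CPM in CD. Of 8 B and plasma cell markers 6 were tested and 0 passed (sums of 17.4 to 26.4, 12.3 to 28.9 and 15 to 34.8 CPM in MD+CA, MD and CD). Of 10 T and NK cell markers only 2 had enough reads to be tested and 0 passed. The sums were 7.90, 16.9, 6.20 and 7.70 CPM in MD+CA, against 2.39 to 5.54 CPM in MD and 4.20 to 5.70 CPM in CD. Every MD+CA library stood above every MD and CD library, highest again in MD+CA replicate 2. Cd3g did not overlap either, at 1.06 against MD and 1.25 against CD (edgeR adjusted p = 0.143 and 0.217). Of 8 markers of recruited macrophages 5 were tested and 0 passed (67.1 to 144, 107.9 to 163 and 91.6 to 146 CPM in MD+CA, MD and CD). Spp1 was the largest part of these sums (means of 77.7, 97.3 and 77.3 CPM), and single markers went different ways. Against CD, Ccr2 averaged higher in MD+CA (1.17, edgeR adjusted p = 0.171) and in MD (0.92, 0.183). Cd14 did so too (0.82, 0.63 and 1.34, 0.148), while Cd9 was lower (-0.90, 0.184 and -0.70, 0.197). At an unadjusted p under 0.05 in MD+CA against MD, 1 B cell marker and 1 T or NK cell marker were higher and 0 markers of recruited macrophages differed, and DESeq2 and limma voom called 0 in these 3 lists. Sinusoidal endothelial and hepatocyte markers, 6 each, gave 0 edgeR calls in any comparison. In MD+CA against MD 3 endothelial markers were lower and 0 hepatocyte markers differed at an unadjusted p under 0.05, where 23.2% of all genes passed in either direction. In MD against CD 3 endothelial markers were higher and 1 hepatocyte marker was lower (19.9% of all genes). In MD+CA against CD 0 of either list differed (10.5% of all genes). The median log2 differences of the endothelial markers were -0.47, 0.51 and -0.03 in these 3 comparisons. Both other tools called 1 endothelial marker, Lyve1 (1.27 by edgeR, edgeR adjusted p = 0.113), in MD against CD, where DESeq2 called 4.68% and limma voom 2.74% of all genes.

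H2-K1 needed a check of its transcripts. A short transcript, H2-K1-215, annotated as a retained intron of 457 bases, had 1682, 1575, 0 and 569 reads in MD, against 0 in all MD+CA libraries and 0, 1, 0 and 5 in CD. It took 13.5, 25.2, 0 and 4.76% of the gene's reads in MD. Of its bases, 437 (95.6%) lie in exons of the coding transcript H2-K1-201 in the GENCODE M21 annotation, so reads of both transcripts can be hard to tell apart. The coding transcript H2-K1-201 held 45.4, 31.7, 73.5 and 59.5% of the reads in MD, against 58.0 to 73.7% in MD+CA and 64.4 to 74.4% in CD. The difference between the length and the effective length of long transcripts, which follows the mean fragment length, was 230, 221, 261 and 253 bases in MD. It was 227 bases in MD+CA replicate 1, which had no H2-K1-215 reads, 270 to 276 in MD+CA replicates 2 to 4, and 246, 268, 280 and 258 in CD. Its part in the assignment was not tested. A read of a short transcript adds more TPM than a read of a long one. H2-K1 averaged 1058 ± 238 TPM in MD, against 712 ± 205 TPM in CD (SD, n = 4 each), and its CPM differed by 0.10 on the log2 scale. With an offset for transcript length the MD+CA over MD difference of H2-K1 was -0.61 (edgeR adjusted p = 0.201).

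**Figure D5:**
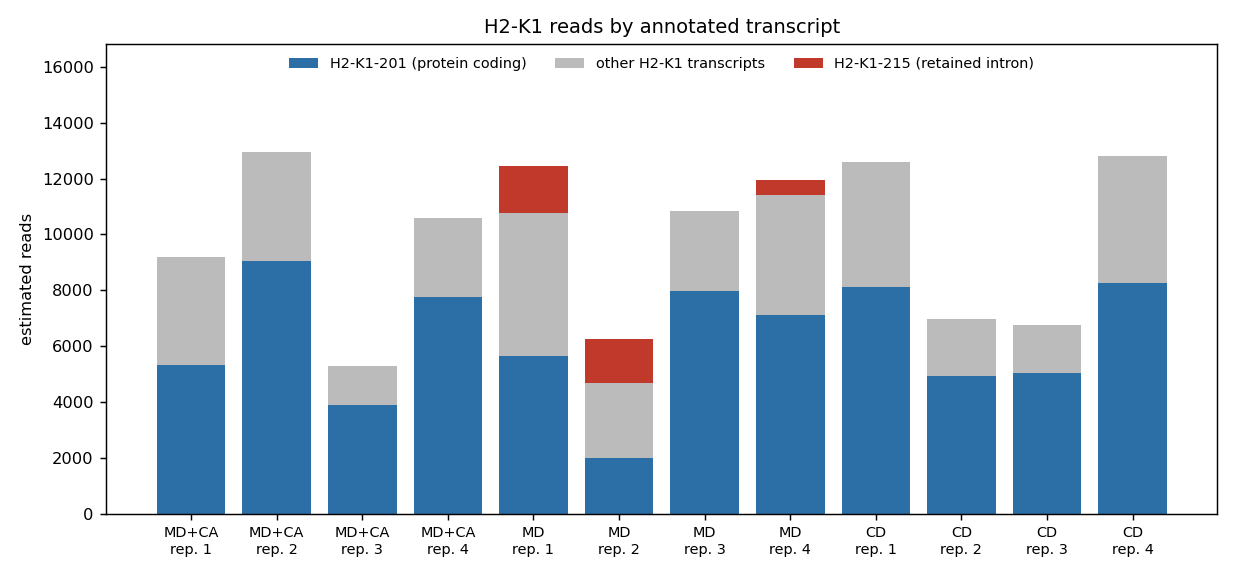
Estimated reads of H2-K1 in each library, stacked by annotated transcript, for the MD+CA, MD and CD libraries. The retained-intron transcript H2-K1-215 appears in MD replicates 1, 2 and 4, with 1682, 1575 and 569 reads, and holds at most 5 reads in any other library.

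The immunoproteasome genes also had reads on retained-intron transcripts, in the largest share in MD replicate 2. That share in Psmb8 was 31.0, 50.0, 4.25 and 13.0% in MD, against 27.1, 2.97, 1.52 and 3.63% in MD+CA and 12.7, 8.01, 10.07 and 16.3% in CD. In Psmb9 it was 22.8, 51.9, 15.8 and 24.3% in MD, against 6.85 to 14.8% in MD+CA and 32.0, 11.1, 16.1 and 5.07% in CD, so that CD replicate 1 stood above 3 of the 4 MD libraries. MD replicate 2 was also the library with the largest mitochondrial share. Not every member had its largest share there. In the class II gene H2-Eb1 the share was largest in MD+CA replicate 1 (56.94%) and CD replicate 1 (43.55%). It was 12.12% in MD replicate 2. In Tap1 the share was largest in CD replicate 3. The part of RNA quality in these shares was not tested.

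Class II genes varied together from library to library. Over the 12 libraries, which share the group differences and MD+CA replicate 2, Pearson's r of log2 CPM was 0.99 for H2-Ab1 with H2-Eb1, 0.95 for H2-Ab1 with Cd74 and 0.96 for H2-Eb1 with Cd74. H2-Aa followed less closely, at 0.91 with Cd74, 0.82 with H2-Ab1 and 0.81 with H2-Eb1. Over the 11 libraries without MD+CA replicate 2 the 6 values were, in the same order, 0.95, 0.89, 0.89, 0.83, 0.70 and 0.63. Class I members followed class II genes as well. H2-Aa had 0.83 with Tap1 and 0.81 with H2-K1 over 12 libraries, and 0.675 and 0.74 over those 11. Psmb8 and Psmb9 had 0.76 to 0.80 with H2-Ab1, H2-Eb1 and Cd74 over 12 libraries, and 0.015 to 0.43 over those 11. Tap1 and Psmb9, which share the stretch between their starts shown above, had 0.91 over 12 libraries and 0.79 over those 11. H2-D1 and Tap1 had 0.10 over 12 libraries and -0.69 over those 11. B2m followed the heavy chains little, at 0.15 with H2-K1 and 0.12 with H2-D1. These values are descriptions over libraries, with no test.

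The tested protein-coding genes most like the class II members were sought by Pearson's r with the mean standardised log2 CPM of the 4 genes over 12 libraries. They were Gbp2 (0.90), Cd274 (0.90), Gbp6 (0.88), Gbp10 (0.88) and Gbp5 (0.86), that is, 4 genes of interferon-induced guanylate-binding proteins and the gene of the checkpoint ligand PD-L1. Over the 11 libraries without MD+CA replicate 2 their r was 0.74, 0.70, 0.60, 0.60 and 0.57. These genes were chosen for following a pattern that is highest in MD+CA replicate 2, so their levels are a description, with no test. Gbp6 averaged 139 CPM in MD+CA (40.9 to 355), 28.1 CPM in MD (25.5 to 33.8) and 31.3 CPM in CD (21.1 to 43.4). Gbp2 ranged from 5.06 to 41.0 CPM in MD+CA, 5.50 to 9.69 CPM in MD and 5.56 to 10.0 CPM in CD, and Cd274 from 1.52 to 12.1, 2.47 to 3.22 and 1.11 to 2.50 CPM in the same groups. Every MD+CA library of Gbp6 stood above every MD library, while the libraries of Gbp2 and Cd274 overlapped. For the 6 class I members the genes most alike included Slc25a4 (0.92), Mylpf (0.90), Ly6a (0.88) and Eif4e3 (0.87). Mylpf, a myosin light chain of fast muscle, averaged 5.04 CPM in MD+CA with 16.6 CPM in the highest library, against at most 0.841 CPM in MD and 0.834 CPM in CD. Over the 11 libraries without MD+CA replicate 2, which held the muscle transcripts, these 4 values of r were 0.70, 0.60, 0.52 and 0.75.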

How the data were processed

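Poly(A) RNA was sequenced in 12 mouse liver libraries. The authors deposited, per the file headers, an estimated count of reads and a TPM value for each transcript in each library; per the submitters' processing notes fastp, Salmon 1.10.3, DESeq2 and the build GRCm39 were used. No source names the annotation release or the strand setting, so reads of overlapping genes on opposite strands cannot be told apart.

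Here, estimated counts were summed over the transcripts of each gene and rounded, and TPM was summed for levels compared between genes. Genes were kept with edgeR's filterByExpr (minimum count 10; 13631 of 56065). Fits used edgeR 4.0.16 (TMM scaling, quasi-likelihood test, 3 group means, 12 libraries, 9 residual degrees of freedom) in R 4.3.3, with Benjamini-Hochberg adjustment over all genes tested and a threshold of 0.05. CPM values are TMM-scaled, and correlations used log2 CPM with a prior count of 2. Depth was 9089586 to 14492587 assigned reads, and a gene with few reads carries counting error besides the spread between libraries. Alternatives were RLE scaling, DESeq2 1.42.0, limma 3.58.1 (voom with sample weights), no filter, a transcript length offset, a replicate block, fits of the compared groups alone and each library left out. The test code was tested on simulated data; figures were drawn with Python 3.11.15 and matplotlib 3.10.9.

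The members and lists were chosen with earlier results of these data known. Genes named from each list are those past the threshold (at most 5) or, with fewer than 3, those with the smallest p; genes most alike are the 5 with the highest correlation at an average log2 CPM of at least 1. Ciita, Nlrc5, Ifng, H2-Q10, the muscle list and the fit without both MD replicate 2 and MD+CA replicate 2 were chosen after the values were seen. Some genes of the lists are not reported here.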

Additional observations from a re-analysis of the deposited data

Results flagged for a closer look

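In 30 sets of 4 libraries (10 members in 3 groups), 2 held a library far from the other 3 by Dixon's criterion; chance flags about 1 in 20 groups. Psmb9 had 63.4 CPM in MD+CA replicate 2, against 19.1 to 22.3 CPM in MD+CA replicates 1, 3 and 4; this is the library that held muscle transcripts, and their part was not tested. B2m had 2344 CPM in MD replicate 1, against 1828 to 1903 CPM in MD replicates 2, 3 and 4.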

How the results depend on the processing

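Over all genes, the calls moved with the processing. In MD+CA against MD, 369 genes passed, against 1203 with DESeq2, 1017 with no low-count filter, 197 with a transcript length offset, 99 with the compared groups alone, 49 without both MD replicate 2 and MD+CA replicate 2, and 109 to 963 with 1 library left out (119 without MD+CA replicate 2). In MD against CD, 12 passed, against 638 (DESeq2), 374 (limma voom), 481 (no filter), 2 (length offset), 35 (compared groups alone), 2 (without both) and 0 to 26 (1 library left out). In MD+CA against CD, 72 passed, against 334, 191, 390, 34, 46, 28 and 17 to 169 in the same order.

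Of the 10 members, 0 passed in each comparison. In MD+CA against MD, 3 passed with DESeq2, 3 with no filter and 0 to 1 with 1 library left out (Cd74 without MD+CA replicate 3). In MD+CA against CD, 4 passed with DESeq2, 1 with limma voom, 5 with no filter and 0 to 2 with 1 library left out (H2-Aa and Cd74 without MD+CA replicate 3, Psmb8 without replicate 4). In MD against CD, 0 passed in every alternative run. The causes were not tested.

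Small differences turned sign. In MD+CA against MD, H2-K1 was -0.61 with the length offset, -0.12 without both libraries and -0.012 to 0.19 with 1 left out. B2m was 0.012 with the offset and -0.14 to 0.11 with 1 left out. Tap1 was -0.037 without both and -0.20 to 0.44, and Psmb9 -0.11 without both and -0.13 to 0.65. In MD against CD, H2-Ab1 was 0.028 with limma voom, 0.18 with the offset, 0.051 without both and -0.092 to 0.051 with 1 left out. H2-Eb1 was 0.053, 0.16, 0.070 and -0.14 to 0.069 in the same order. The class II differences in both comparisons with MD+CA stayed positive in all alternatives run.

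With the replicate number as a block, 664 genes passed in MD+CA against MD and 154 in MD+CA against CD, and 0 members in any comparison. The numbers pair nothing that the labels state, and same-numbered libraries correlated at -0.079 to 0.35 after removing group means, with 4 of 12 pairs not over 0.1. With 4 libraries a group, members with few reads, such as H2-Aa (97 in its lowest library), carry counting error besides.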
